A study of Homo sapiens with 9 samples.

Results

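The 8 desmosome genes described here are the rows of the OVCAR4 count table for DSG2, DSC2, DSC3, DSP, PKP1, PKP2, PKP3 and PERP, taken by gene name from the 58735 genes of the table. No measured value entered the rule, but the members were chosen with earlier results of these data known. OVCAR4 is an established human cell line of high-grade serous ovarian carcinoma, and RNA was sequenced from 9 libraries in 3 groups of 3 biological replicates. The scr group carried a lentiviral vector with a scrambled shRNA and was otherwise unmodified at MPZL3, the shMPZL3 #1 group carried the first shRNA against MPZL3, and the shMPZL3 #2 group carried the second. All 3 groups went through transduction and puromycin selection for 3 days, and the RNA came from pools of transduced cells, in which the extent of knockdown may differ from cell to cell. MPZL3 encodes a predicted cell adhesion molecule, and the series asked how its loss alters these cells.

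Desmosomes are spot-like junctions that hold neighbouring epithelial cells together and tie their keratin filaments into 1 mechanical network. Desmogleins and desmocollins, which are cadherins, bind each other across the gap between cells, and inside the cell plakoglobin (JUP) and the plakophilins (PKP1, PKP2 and PKP3) connect their tails to desmoplakin (DSP), which grips the keratins. PERP is a small membrane protein of 4 transmembrane spans that is found at desmosomes and is also a target of p53. Simple epithelia use mainly DSG2, DSC2 and PKP2, whereas DSC3 and PKP1 are best known from stratified epithelia such as skin.

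The 3 cadherin genes lie near each other on chromosome 18 of GRCh38. DSC3 spans 30990008 to 31042815 and DSC2 spans 31058840 to 31102522, both on the minus strand, and DSG2 spans 31498043 to 31549008 on the plus strand, so that 559001 bases hold all 3 genes. These were also the members that differed from scr with at least 1 shRNA, and the 250 bases before the RefSeq start of each (GRCh38.p14, on the strand of the gene, 5′ to 3′) are shown to let a reader compare their promoters. Capitals mark matches, on either strand, to 5 motifs, namely the E-box CACCTG that SNAI and ZEB factors bind, the grainyhead-like motif AACCNGGTT, the GC box GGGCGG, the AP-1 motif TGANTCA and the TATA box TATAAA, and no 2 matches overlap in these sequences. The DSC3 sequence is chr18:31042743-31042992 on the minus strand, the DSC2 sequence is chr18:31102422-31102671 on the minus strand, and the DSG2 sequence is chr18:31497927-31498176 on the plus strand.
DSC3: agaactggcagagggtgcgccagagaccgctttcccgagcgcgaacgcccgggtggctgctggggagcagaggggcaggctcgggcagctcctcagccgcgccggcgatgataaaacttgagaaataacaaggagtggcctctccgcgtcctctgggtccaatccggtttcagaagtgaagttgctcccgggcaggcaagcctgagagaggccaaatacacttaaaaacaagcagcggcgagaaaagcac
DSC2: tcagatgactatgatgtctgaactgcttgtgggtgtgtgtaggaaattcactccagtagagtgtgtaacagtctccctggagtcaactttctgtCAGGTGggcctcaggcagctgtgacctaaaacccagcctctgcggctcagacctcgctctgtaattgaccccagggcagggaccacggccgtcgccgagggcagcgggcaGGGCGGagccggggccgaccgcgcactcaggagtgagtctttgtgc
DSG2: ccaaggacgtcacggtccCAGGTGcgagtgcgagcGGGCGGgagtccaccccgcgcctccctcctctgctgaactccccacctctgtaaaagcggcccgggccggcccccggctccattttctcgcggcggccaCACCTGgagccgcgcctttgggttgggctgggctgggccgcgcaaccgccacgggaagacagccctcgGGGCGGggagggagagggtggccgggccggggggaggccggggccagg
The DSC3 sequence held no match to any of the 5 motifs. The DSC2 sequence held 1 E-box, 156 bases before the start, and 1 GC box, 46 bases before it, and the DSG2 sequence held 2 E-boxes, 232 and 116 bases before the start, and 2 GC boxes, 215 and 48 bases before it. Of the 35116 promoters of the same length in the RefSeq table, 17.5% held the E-box and 42.6% the GC box, while 0.202% held the grainyhead-like motif, 6.57% the AP-1 motif and 10.7% the TATA box. The G and C content was 60.4% for DSC3, 59.6% for DSC2 and 75.2% for DSG2, against a median of 58% over all promoters. DSC2 has 2 starts in the table, of which the one nearest the 5′ end of the gene was used. The RefSeq start lay inside the gene as counted, by 134 bases for DSG2, 101 for DSC2 and 73 for DSC3. The end of each sequence shown therefore lies within the counted gene.

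Total counts ranged from 15040102 to 27835841 per library, and the 8 members together took between 0.20% and 0.296% of them. After the filter on low counts 16928 genes were tested, among them 8 of the 8 members. The targeted gene, MPZL3, was lower in each of the 6 knockdown libraries than in any scr library, with log2 fold changes of -2.17 for shMPZL3 #1 and -0.89 for shMPZL3 #2. Of 9 epithelial and ovarian carcinoma markers 8 passed the filter, with EPCAM at 403 and PAX8 at 225 CPM (counts scaled to library size) in scr, but MSLN was low at 2.85 CPM and WT1 stayed at 3 to 13 counts per library. Of 8 markers of cornifying keratinocytes, KRT10 was the one that passed the filter, at 31.9 CPM in scr, and KRT1 and LOR had 0 counts in every library.

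Fold changes are log2 values from edgeR's quasi-likelihood test with Benjamini-Hochberg adjustment over all 16928 genes, called at an adjusted p under 0.05, and CPM values are scaled by TMM. With shMPZL3 #1, 3 of the 8 members were called higher than in scr and 0 lower, where 16.8% of all genes tested were called higher and 15.3% lower. The 3 were the cadherins DSG2, DSC2 and DSC3. With shMPZL3 #2, 1 of the 8, DSC3, was called higher and 0 lower, against 9.36% and 5.80% of all genes. In the bulk RNA measured here, a change in the share of cells that express a gene and a change in its RNA per cell cannot be told apart. The median log2 fold change of the 8 members was 0.28 with shMPZL3 #1 and 0.13 with shMPZL3 #2, beside 0.01 and 0.00 over all genes tested.

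**Figure D1:**
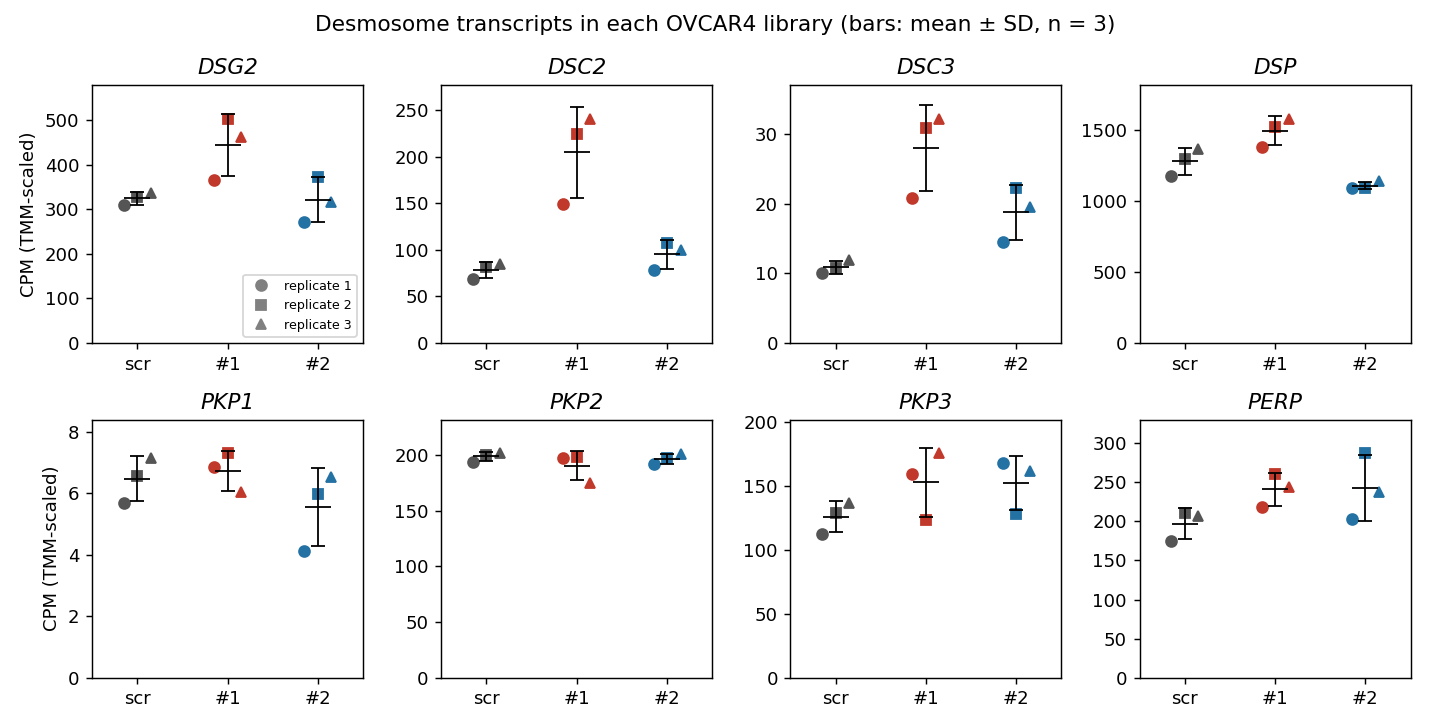
Each panel plots 1 member, with CPM on the vertical axis and the scr, shMPZL3 #1 and shMPZL3 #2 groups on the horizontal axis, 1 marker per library and the mean ± SD of the 3 replicates as bars. DSC3 lay between 10.0 and 11.8 CPM in scr and above that range in all 6 knockdown libraries, while PKP2 stayed between 175 and 202 CPM throughout.

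DSC3, a desmocollin of stratified epithelia (ENSG00000134762), was the only member called with both shRNAs. Its level was 10.0, 10.7 and 11.8 CPM in the scr libraries, 20.8, 30.8 and 32.2 CPM with shMPZL3 #1, and 14.5, 22.2 and 19.5 CPM with shMPZL3 #2. Every knockdown library was above every scr library, although the 2 knockdown groups overlapped each other. These values rested on 155 to 699 counts per library, the second lowest among the members. DSC3 rose 2.57-fold with shMPZL3 #1 (log2 fold change 1.36 ± 0.18, SE, adjusted p = 4.91e-05) and 1.73-fold with shMPZL3 #2 (0.79 ± 0.18, adjusted p = 0.00756).

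DSC2, the desmocollin of simple epithelia and heart (ENSG00000134755), rose most with shMPZL3 #1. It measured 68.9, 82.0 and 85.1 CPM in scr, 149, 225 and 241 CPM with shMPZL3 #1, and 78.2, 107 and 99.6 CPM with shMPZL3 #2. The shMPZL3 #1 libraries stood clear of all the others, and the shMPZL3 #2 libraries overlapped scr. The rise with shMPZL3 #1 was 2.60-fold (log2 fold change 1.38 ± 0.16, SE, adjusted p = 1.42e-05). With shMPZL3 #2 the log2 difference was 0.27, with a 95% interval of -0.06 to 0.60 and an adjusted p of 0.264, which leaves room for a rise of up to 1.52-fold.

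DSG2, the desmoglein found in every epithelium with desmosomes (ENSG00000046604), was the most abundant of the 3 cadherins. It had 309, 328 and 337 CPM in scr, 366, 504 and 463 CPM with shMPZL3 #1, and 272, 373 and 317 CPM with shMPZL3 #2. All shMPZL3 #1 libraries were above scr, whereas the shMPZL3 #2 libraries fell on both sides of it. DSG2 rose 1.37-fold with shMPZL3 #1 (log2 fold change 0.45 ± 0.13, SE, adjusted p = 0.0115), a call that was lost without scr replicate 1 (adjusted p = 0.0502) or shMPZL3 #1 replicate 2 (adjusted p = 0.0502). With shMPZL3 #2 the difference was -0.02 on the log2 scale (95% interval -0.28 to 0.25, adjusted p = 0.945). The antisense genes that overlap DSG2 and DSC2, DSG2-AS1 and DSCAS, had 53 and 14 counts over all libraries beside 67377 and 23829 for the cadherins, and these unstranded libraries cannot tell which strand a shared read came from.

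DSP, the plakin that anchors keratin filaments (ENSG00000096696, chr6:7541575-7586717, plus strand), was the most abundant member. It had 1177, 1291 and 1365 CPM in scr, 1381, 1521 and 1579 CPM with shMPZL3 #1, and 1089, 1094 and 1137 CPM with shMPZL3 #2. The shMPZL3 #1 libraries were all above scr and the shMPZL3 #2 libraries all below it. Neither difference passed the test, with log2 values of 0.22 ± 0.09 (adjusted p = 0.0779) and -0.21 ± 0.09 (adjusted p = 0.150), although DESeq2, the tool the study used, called the first at the same size (0.22, adjusted p = 0.0478).

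PERP, the tetraspan protein (ENSG00000112378, chr6:138088505-138107511, minus strand), measured 175, 210 and 206 CPM in scr, 218, 261 and 244 CPM with shMPZL3 #1, and 203, 287 and 238 CPM with shMPZL3 #2. The shMPZL3 #1 libraries were above scr, and 1 shMPZL3 #2 library lay within the scr range. The log2 differences were 0.29 ± 0.12 (adjusted p = 0.0840) and 0.30 ± 0.12 (adjusted p = 0.113), neither past the threshold. Among members whose groups do not overlap, 5 of 8 (DSG2, DSC2, DSC3, DSP and PERP) were higher in all shMPZL3 #1 libraries, where 23.9% of all genes tested were, and with shMPZL3 #2 DSC3 was higher and DSP lower, where 18.7% and 17.6% of all genes were. An exact permutation test of 3 libraries against 3 cannot give a p below 0.1, which is what each of these separations reached.

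None of the 3 plakophilins, the armadillo proteins that cluster desmosomal cadherins, was called in any comparison by edgeR's test on all 9 libraries. PKP3, which binds the widest range of desmosomal cadherins (ENSG00000184363, chr11:392614-404908, plus strand), had 113, 129 and 136 CPM in scr, 159, 123 and 175 CPM with shMPZL3 #1, and 167, 128 and 161 CPM with shMPZL3 #2. In each knockdown group replicate 2 lay inside the scr range and the other 2 libraries above it. The log2 differences were 0.28 ± 0.13 with shMPZL3 #1 (unadjusted p = 0.0516, adjusted p = 0.122) and 0.27 ± 0.13 with shMPZL3 #2 (unadjusted p = 0.0539, adjusted p = 0.178) by the quasi-likelihood test. Without shMPZL3 #1 replicate 2, PKP3 was called with shMPZL3 #1 (0.41, adjusted p = 0.0190). PKP2, the plakophilin of simple epithelia and heart (ENSG00000057294, chr12:32790745-32896840, minus strand), had 194, 201 and 202 CPM in scr, 198, 199 and 175 CPM with shMPZL3 #1, and 192, 198 and 201 CPM with shMPZL3 #2. It varied least of the members, and the 95% intervals of its log2 differences from scr, -0.25 to 0.13 and -0.20 to 0.18, were the narrowest. PKP1, the plakophilin of suprabasal skin layers (ENSG00000081277, chr1:201283452-201332993, plus strand), was the lowest member, with 84 to 179 counts per library. It had 5.70, 6.57 and 7.16 CPM in scr, 6.86, 7.31 and 6.03 CPM with shMPZL3 #1, and 4.14, 5.98 and 6.55 CPM with shMPZL3 #2, and the groups overlapped in every comparison.

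**Figure D2:**
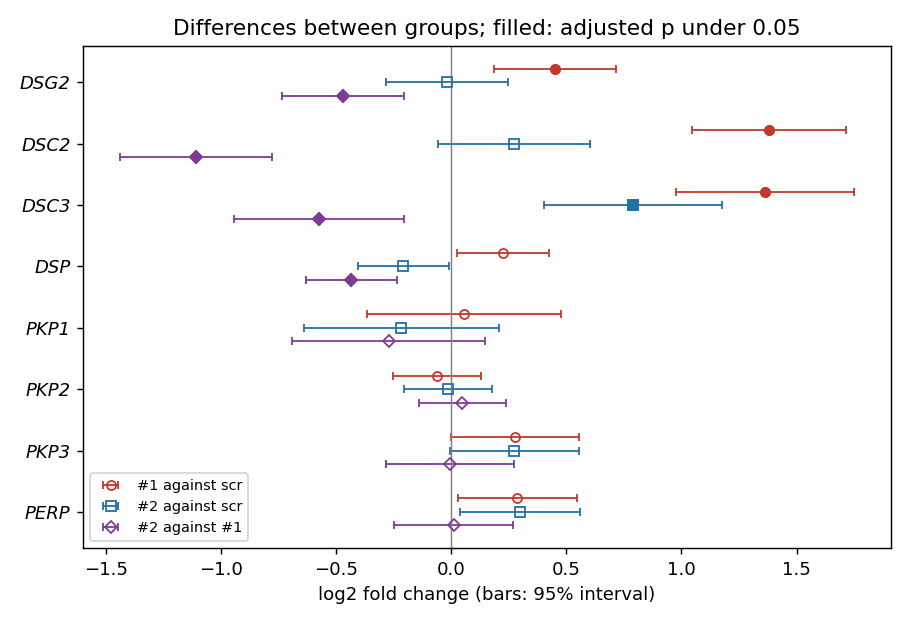
The log2 fold change of each member (horizontal axis, with 95% interval) is plotted for shMPZL3 #1 against scr, shMPZL3 #2 against scr and shMPZL3 #2 against shMPZL3 #1, and filled markers have an adjusted p under 0.05. Filled markers occur only for DSG2, DSC2, DSC3 and DSP, and the largest difference between the shRNAs is that of DSC2, at -1.11.

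With both shRNAs grouped as 1 knockdown condition of 6 libraries, as the study did, DSC3 was the only member called (1 of 8 higher, 0 of 8 lower, against 9.36% and 6.40% of all genes tested). Its log2 fold change was 1.10 ± 0.23 (SE, adjusted p = 0.00702) and the call was lost without scr replicate 1 (1.04, adjusted p = 0.0546). The exact permutation test of its 6 knockdown against 3 scr libraries gave p = 0.0119, the smallest that the design allows, and 11.8% of all genes tested were likewise higher in every knockdown library than in every scr library. Both this test and the grouped fit treat the libraries of the 2 shRNAs as replicates of 1 condition. DSC3 differed between the shRNAs (log2 difference -0.57, adjusted p = 0.0342 by edgeR). DSC2 had a grouped log2 fold change of 0.93 ± 0.31 (adjusted p = 0.0568), and without shMPZL3 #2 replicate 1, 2 or 3 it was called, with an adjusted p of 0.0220, 0.0428 and 0.0373. The other 6 members had grouped log2 fold changes between -0.07 for PKP1 and 0.29 for PERP and were not called.

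The shRNAs themselves differed at 4 members. DSG2, DSC2, DSC3 and DSP were lower with shMPZL3 #2 than with shMPZL3 #1 and 0 members were higher, where 7.56% of all genes tested were called lower and 7.56% higher. DSC2 was lower by 1.11 on the log2 scale (-1.11 ± 0.16, SE, adjusted p = 0.000196) and DSP was lower by less (-0.43 ± 0.09, adjusted p = 0.00524), and for both the groups did not overlap, as for 14.6% of all genes in that direction. DSC3 differed by -0.57 ± 0.17 (adjusted p = 0.0342) and DSG2 by -0.47 ± 0.13 (adjusted p = 0.0186), with some overlap between the groups. Without shMPZL3 #1 replicate 2, shMPZL3 #1 replicate 3, shMPZL3 #2 replicate 1 or shMPZL3 #2 replicate 3, neither was called, with an adjusted p for DSG2 of 0.0767, 0.0589, 0.0866 and 0.0629 and for DSC3 of 0.108, 0.144, 0.139 and 0.0730. PKP3 and PERP differed by 0.00 and 0.01 between the shRNAs, with 95% intervals of -0.28 to 0.28 and -0.25 to 0.27. The 3 comparisons share libraries, so they do not repeat each other independently.

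Several quantities moved alongside the shRNAs. MPZL3 itself had 28.1 ± 1.87 CPM (SD, n = 3) in scr, 6.25 ± 0.629 CPM in the shMPZL3 #1 group and 15.2 ± 2.90 CPM in the shMPZL3 #2 group. Of 10 interferon-stimulated genes, 10 were called higher with each shRNA, against 16.8% of all genes tested with shMPZL3 #1 and 9.36% with shMPZL3 #2. Their summed level was 64.2 to 126 CPM in scr, 335 to 968 CPM with shMPZL3 #1 and 821 to 1052 CPM with shMPZL3 #2. The 8 fibroblast markers summed to 18.9 to 23.2 CPM in scr, 43.5 to 63.1 CPM with shMPZL3 #1 and 34.7 to 38.2 CPM with shMPZL3 #2, and 4 of the 8 passed the filter, while DCN was at 0 in every library and PDGFRA had at most 2 counts. COL1A1 was the largest part of the sum, with means of 12.9, 33.5 and 19.9 CPM in the same order, while PDGFRA and PDGFRB did not rise. The part of these quantities in the results for desmosome genes was not tested.

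Levels of different genes were compared per length, as CPM per kilobase of the deposited gene length (RPKM). In scr, DSP was highest with 127 ± 9.40 RPKM (SD, n = 3) and was followed by DSG2 at 52.5 ± 2.35, PERP at 46.0 ± 4.56, PKP3 at 33.3 ± 3.22, PKP2 at 28.2 ± 0.569, DSC2 at 6.29 ± 0.688, DSC3 at 1.54 ± 0.130 and PKP1 at 1.04 ± 0.119 RPKM. No 2 neighbours in this order overlapped in the scr libraries. The place of PKP2 depended on the length used, because with the principal transcript of each gene in place of all its exons PKP2 had 46.2, PERP 46.0 and PKP3 44.8 RPKM in scr. DSP was above 98.4% of the genes tested and PKP1 above 29.9%. Both knockdown groups kept DSP as the highest and PKP1 as the lowest member, but with shMPZL3 #1 DSG2 and PERP overlapped, and with shMPZL3 #2 PERP, DSG2 and PKP3 overlapped as neighbours.

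**Figure D3:**
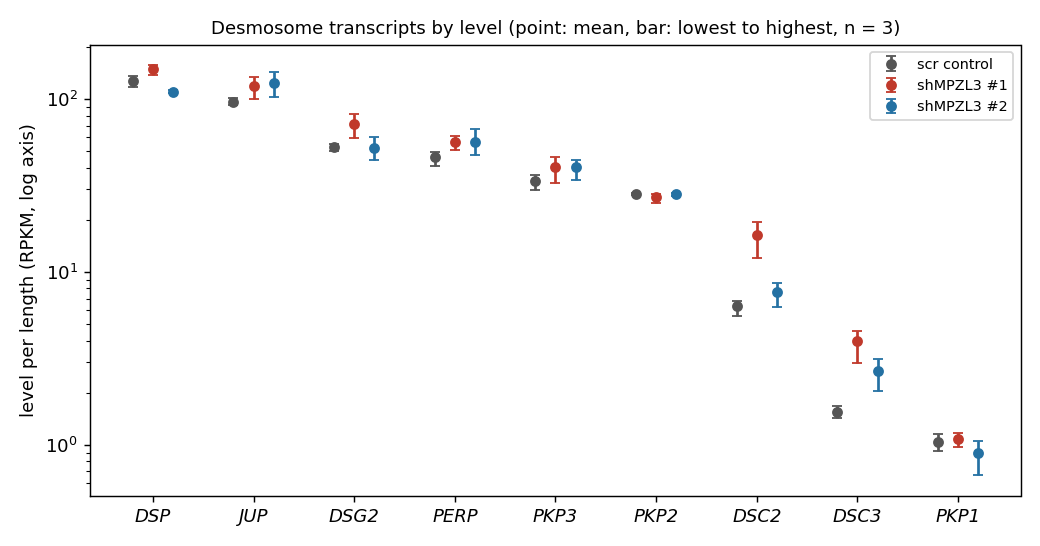
The level of each desmosome gene in RPKM (vertical log axis) is given per group as the mean with the lowest and highest of 3 libraries, with JUP added for its place in the desmosome. DSP and JUP lie near 100 RPKM, while DSC3 and PKP1 lie near 1 RPKM in scr and DSC3 is at 3.96 RPKM with shMPZL3 #1.

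Within the cadherins the make-up shifted. DSG2 made up 87.0% ± 0.673 (SD, n = 3, as for all shares here) of the summed RPKM of the 3 cadherins in scr. Its share was 78.1% ± 2.08 in the shMPZL3 #1 group and 83.5% ± 0.741 in the shMPZL3 #2 group. In the same order of groups, the share of DSC2 was 10.4% ± 0.621, 17.7% ± 1.75 and 12.3% ± 0.530, and that of DSC3 was 2.55% ± 0.10, 4.27% ± 0.327 and 4.25% ± 0.286. In each knockdown library DSC2 and DSC3 took more of the cadherin total than in any scr library. Between the 2 desmocollins, DSC3 held 19.7% ± 0.870 in scr and 19.5% ± 0.348 with shMPZL3 #1, which overlap, but 25.8% ± 1.05 with shMPZL3 #2, where the lowest library (24.7%) was above the highest of the other groups (20.5%). The plakophilin shares were led by PKP3 with 53.1% ± 1.88 in scr, 58.6% ± 5.82 with shMPZL3 #1 and 58.0% ± 3.84 with shMPZL3 #2, and the groups overlapped. PKP1 held at most 1.90% in any library. These shares are given as a description, without a test.

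**Figure D4:**
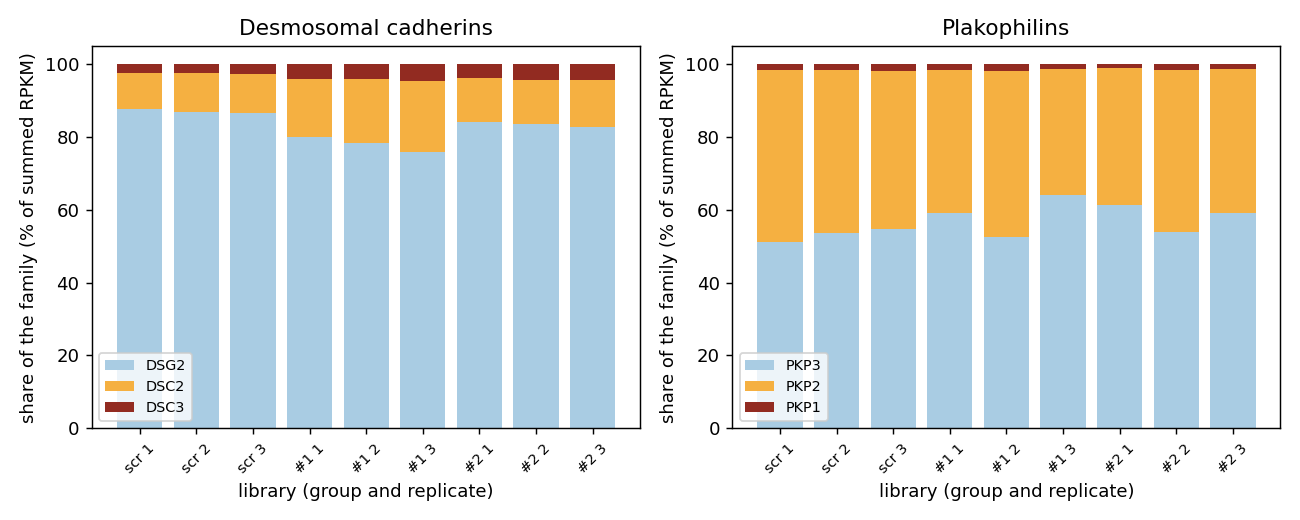
Stacked bars give, for each of the 9 libraries, the share of each cadherin (left) and each plakophilin (right) in the summed RPKM of its family, in percent. The DSG2 share is lowest in the 3 shMPZL3 #1 libraries, between 75.8% and 79.9%, while PKP3 and PKP2 divide the plakophilins between them in every library.

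Of 7 other desmosome genes, JUP and PKP4 passed the filter. JUP, which encodes plakoglobin, had 455, 465 and 502 CPM in scr, 610, 495 and 658 CPM with shMPZL3 #1, and 621, 506 and 707 CPM with shMPZL3 #2. With shMPZL3 #1, replicate 2 lay within the scr range and the others above it, and all shMPZL3 #2 libraries were above scr. Its log2 differences of 0.31 (adjusted p = 0.0672) and 0.37 (adjusted p = 0.0565) did not pass the test. PKP4, an armadillo protein of adherens junctions and desmosomes, fell with shMPZL3 #1 by 0.52 on the log2 scale (adjusted p = 0.00134) and differed by -0.12 with shMPZL3 #2 (adjusted p = 0.487), a difference between the shRNAs of 0.40 (adjusted p = 0.0168). The skin genes DSG1, DSG3, DSG4, DSC1 and CDSN had 9, 2, 0, 37 and 40 counts over the 9 libraries and were not tested.

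The partners of the desmosome were read from lists of related genes, whose counts stand beside 16.8% of all genes tested called higher and 15.3% lower with shMPZL3 #1, and 9.36% higher and 5.80% lower with shMPZL3 #2. Of 6 plakins and filament linkers, 4 rose and 0 fell with shMPZL3 #1, and 1 rose and 0 fell with shMPZL3 #2. EPPK1, the keratin-binding epiplakin, rose with both, by log2 values of 0.36 (adjusted p = 0.0307) and 0.61 (adjusted p = 0.00272). Of 12 keratins, 3 rose and 0 fell with shMPZL3 #1, and 4 rose and 1 fell with shMPZL3 #2. KRT17, a stress and basal keratin, rose from 401, 501 and 534 CPM in scr to between 1044 and 1429 CPM with shMPZL3 #1 (log2 fold change 1.31, adjusted p = 8.66e-06) and between 894 and 1177 CPM with shMPZL3 #2 (1.09, adjusted p = 5.13e-05). KRT16 rose by 0.81 and 1.10 (adjusted p = 0.00773 and 0.00173), and KRT5, named after its values were seen, was the keratin that fell with shMPZL3 #2 (-1.39, adjusted p = 0.0156). KRT5 was low throughout, with a mean of 1.99 CPM in scr and 0.745 CPM with shMPZL3 #2.

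Hemidesmosomes fasten the same keratins to the basement membrane, and the counts in this and the next group are read against 16.8% and 15.3% of all genes called higher and lower with shMPZL3 #1, and 9.36% and 5.80% with shMPZL3 #2. Of 7 such genes, 3 rose and 1 fell with shMPZL3 #1, and 4 rose and 0 fell with shMPZL3 #2. LAMB3, a chain of a basement membrane laminin, rose with both shRNAs, by log2 values of 1.22 and 0.67 (adjusted p = 3.56e-05 and 0.00816). LAMA3, named after its values were seen, fell with shMPZL3 #1 (-0.38, adjusted p = 0.0107 by edgeR) and rose with shMPZL3 #2 (0.38, adjusted p = 0.0205). Of 10 adherens junction genes, 5 rose and 0 fell with shMPZL3 #1, and 2 rose and 0 fell with shMPZL3 #2. The adhesion proteins NECTIN1 (0.71 and 0.48, adjusted p = 0.000196 and 0.00797) and CDH3, P-cadherin (0.66 and 0.34, adjusted p = 0.000100 and 0.0247), rose with both. The median log2 fold changes with shMPZL3 #1 and shMPZL3 #2 were 0.44 and 0.08 for the plakins, 0.26 and 0.17 for the keratins, 0.54 and 0.38 for the hemidesmosome genes and 0.18 and 0.22 for the adherens junction genes, beside 0.01 and 0.00 over all genes tested.

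Among 13 epithelial transcription and splicing factors, 4 rose and 2 fell with shMPZL3 #1, and 3 rose and 1 fell with shMPZL3 #2 (median log2 fold changes 0.14 and 0.25, beside 0.01 and 0.00 over all genes tested). Of all genes tested, 16.8% were called higher and 15.3% lower with shMPZL3 #1, and 9.36% and 5.80% with shMPZL3 #2, and the 2 of 13 that fell with shMPZL3 #1 are close to that share. ELF3 (0.75 and 0.58) and GRHL1 (0.52 and 0.52), transcription factors of epithelial differentiation, rose with both. KLF5 (-0.45, adjusted p = 0.00177 by edgeR) and ESRP2 (-0.32, adjusted p = 0.0349) fell with shMPZL3 #1. GRHL2 fell with shMPZL3 #2 (-0.32, adjusted p = 0.0250 by edgeR). KLF5, ESRP2 and GRHL2 were named after their values were seen. Of 6 EMT transcription factors, which repress junction genes, SNAI1 was the one that passed the filter, and it rose with shMPZL3 #1 by 0.86 (adjusted p = 0.00135) and differed by -0.04 with shMPZL3 #2 (adjusted p = 0.902). The other 5, SNAI2, ZEB1, ZEB2, TWIST1 and TWIST2, had at most 13 counts each over the 9 libraries. Of 21 p53 targets, the group to which PERP belongs, 5 rose and 1 fell with shMPZL3 #1, and 8 rose and 1 fell with shMPZL3 #2 (medians 0.25 and 0.07). CDKN1A, which halts the cell cycle, rose by 1.03 and 1.22 (adjusted p = 3.21e-05 and 1.10e-05), GDF15, a stress cytokine, by 0.76 and 1.63 (adjusted p = 0.000169 and 4.96e-07), and TP53INP1 by 1.20 and 0.58 (adjusted p = 1.56e-05 and 0.0101).

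Of 12 proteases and kinases that act on desmosomes, 2 rose and 2 fell with shMPZL3 #1, and 1 rose and 2 fell with shMPZL3 #2 (medians 0.02 and -0.05). The rises were near the shares of all genes called higher, 16.8% with shMPZL3 #1 and 9.36% with shMPZL3 #2, and 15.3% and 5.80% of all genes were called lower. MMP7, a protease that cuts cell surface proteins, rose by 1.04 and 1.56 (adjusted p = 0.000342 and 2.09e-05). EGFR, a receptor kinase that phosphorylates desmosomal proteins, fell by 0.73 with shMPZL3 #1 (adjusted p = 6.18e-05) and by 0.43 with shMPZL3 #2 (adjusted p = 0.00697). The interferon-stimulated genes had the largest medians of these lists, 2.71 and 3.83, with OAS2 at 4.73 and 6.06, IFI44L at 4.51 and 5.77, OAS1 at 4.18 and 5.58 and IFI6 at 4.26 and 5.03.

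**Figure D5:**
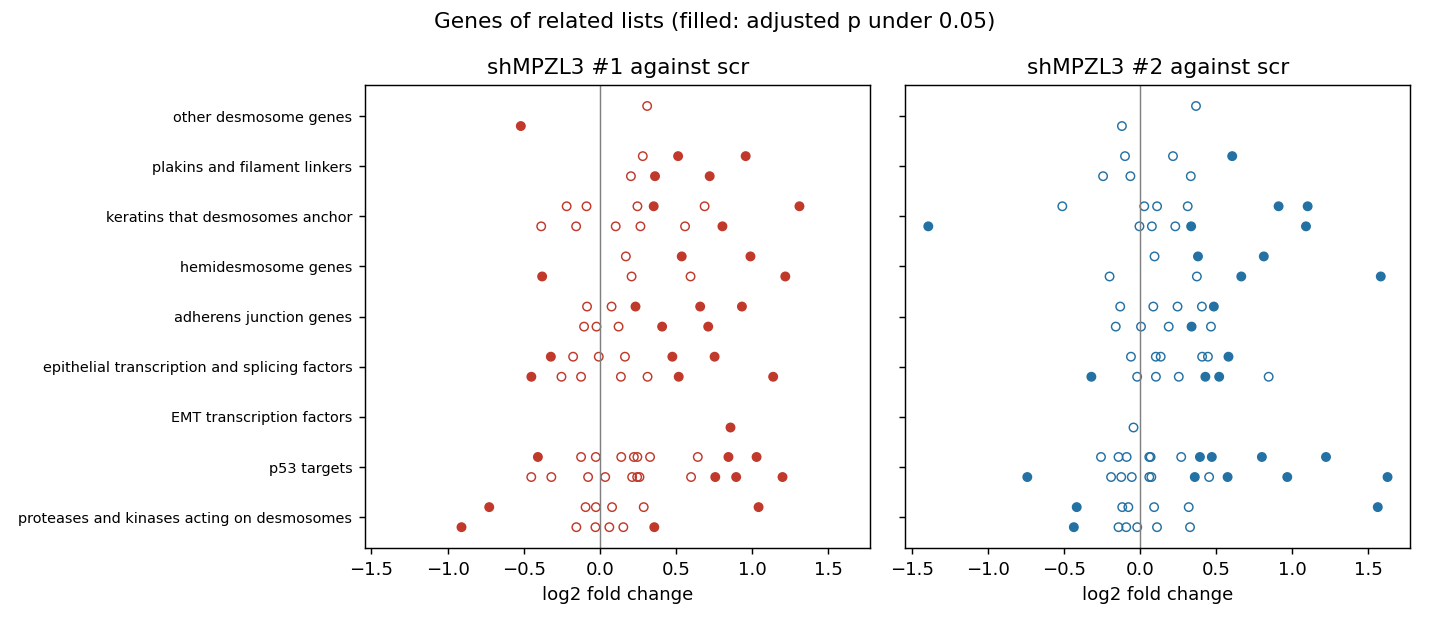
The log2 fold change of every tested gene (horizontal axis) is plotted for 8 lists, with shMPZL3 #1 against scr on the left and shMPZL3 #2 against scr on the right, and filled points have an adjusted p under 0.05. The interferon-stimulated genes are left out for scale. Among the hemidesmosome genes 3 filled points lie to the right of 0 and 1 to the left with shMPZL3 #1, and 4 lie to the right with shMPZL3 #2.

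The genes with the pattern most like that of each called cadherin were sought among 9800 protein-coding genes with a mean log2 CPM of at least 3, by the root mean square difference of centred log2 CPM over the 9 libraries. For DSC3 these were DCBLD2 (0.103), LIMA1 (0.133) and TSPAN2 (0.136), and for DSC2 SIPA1L2 (0.0658), KLK5 (0.105) and TNFSF10 (0.128). For DSG2 they were SKIL (0.0571), WDFY1 (0.0579) and KIAA1109 (0.0619), although 19.4% of the genes searched lay within 0.25 of it, against 0.633% for DSC2 and 0.745% for DSC3. Between members, DSG2 and DSP were closest, at 0.162, and DSC2 and DSC3 differed by 0.246.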

How the data were processed

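RNA-seq of OVCAR4 cells was analysed for 3 scr, 3 shMPZL3 #1 and 3 shMPZL3 #2 libraries, grouped by their labels. Libraries were made from poly-A RNA without keeping strand. Per the submitters' processing notes, reads were aligned to hg38 with HISAT2 2.0.5 and counted with featureCounts 1.5.0-p3. The authors deposited raw counts per gene, without normalization, and the deposited table held a gene length, used here for RPKM. The table matched GENCODE release 29 at all 58735 genes, and RefSeq promoters were matched by symbol for 6 of the 8 members. PKP2 and PKP3 had none in the table used.

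The counts were analysed with edgeR 4.0.16 in R 4.3.3 (filterByExpr, TMM, two-sided quasi-likelihood test, called at adjusted p under 0.05), with all 9 libraries in 3 groups, or 6 knockdown libraries against 3. DESeq2 1.42.0, limma 3.58.1 and other scalings, filters and fits were alternatives, and the procedure was tested on simulated data. Log2 CPM used a prior count of 2. P-values cover the spread between these libraries, and low counts limit the precision for PKP1 and DSC3. No 2 replicates of a group agreed within counting noise. Named genes were the 8 members, the other desmosome genes, up to 4 genes per list called with both shRNAs in 1 direction, the 3 genes most like each called member, and MPZL3, and 2 genes that this rule names are not reported here. The members and lists were chosen with earlier results of these data known, so none is independent evidence. OVCA433 libraries were not analysed here.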

Additional observations from a re-analysis of the deposited data

Results flagged for a closer look

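Members whose effect differed between the 2 shRNAs by a test of the difference were DSG2, with a log2 difference of shMPZL3 #2 minus shMPZL3 #1 of -0.47, DSC2 with -1.11, DSC3 with -0.57 and DSP with -0.43. The adjusted p from edgeR was 0.0186, 0.000196, 0.0342 and 0.00524.

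Dixon's test set 1 library apart from the other 5 knockdown libraries for PKP1, where shMPZL3 #2 replicate 1 had 4.14 CPM and the gap was 0.646 of the range, and for PKP2, where shMPZL3 #1 replicate 3 had 175 CPM and the gap was 0.667 of the range. Both ratios exceed Dixon's 95% critical value for 6 libraries. Chance gives about 1 in 20 groups such a value, and 8 members were examined.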

How the results depend on the processing

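Of 536 member fold changes under an alternative, 485 kept their direction and side of the threshold, 18 passed it, 11 no longer passed it and 22 changed sign. Members called in the grouped comparison were 2 without the filter and 2 by the mean of the shRNA contrasts, DSC2 being the second in both (adjusted p = 3.55e-06 and 0.000417), and with shMPZL3 #1 they were 5 with a minimum of 10 counts. Leaving out 1 library gave 0 to 2 members called in the grouped comparison, 2 to 5 with shMPZL3 #1, 1 with shMPZL3 #2 and 2 to 4 between the shRNAs. The 0 was without scr replicate 1, the grouped 2 without any 1 shMPZL3 #2 library, and the 5 without shMPZL3 #1 replicate 1 (DSP and PERP added, adjusted p = 0.0201 and 0.0375). All genes called in the grouped comparison were 2667, 4677 by the mean of the contrasts and 625 without scr replicate 1. With shMPZL3 #1 they were 5423, and from 3696 to 5816 with 1 library left out. With shMPZL3 #2 they were 2567 and at least 1366, and between the shRNAs 2559 and at least 1469. DSP was also called with shMPZL3 #1 by DESeq2, upper-quartile scaling and a minimum of 10 counts (adjusted p = 0.0478, 0.0443 and 0.0425), and PERP without the filter, with that minimum and without shMPZL3 #2 replicate 2 (adjusted p = 0.0489, 0.0487 and 0.0476). Without shMPZL3 #1 replicate 2, PKP3 was called (adjusted p = 0.0190). The cause was not tested.

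Signs changed only for differences near 0. PERP between the shRNAs was -0.017 with upper-quartile scaling and -0.0088 with a minimum of 10 counts, PKP3 between the shRNAs 0.0030 with limma-voom, and with the minimum of 10 counts DSG2 and PKP2 with shMPZL3 #2 were 0.0010 and 0.0059. Without 1 library each, the ranges were -0.038 to 0.079 for DSP and -0.16 to 0.0097 for PKP1 grouped, -0.032 to 0.13 for PKP1 with shMPZL3 #1, -0.14 to 0.072 for DSG2 and -0.038 to 3.4e-05 for PKP2 with shMPZL3 #2, and -0.0072 to 0.079 for PKP2, -0.14 to 0.11 for PKP3 and -0.12 to 0.11 for PERP between the shRNAs. The permuted differences ranged from -0.055 to 0.064 for DSP and -0.19 to 0.011 for PKP1.

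The labels number the replicates alike but do not say that they are paired. Same-numbered libraries of different groups deviated together weakly (correlations from -0.00143 to 0.218). Differently numbered libraries had correlations from -0.147 to 0.0671. The main fit did not take the numbers to pair libraries, and whether they do was not tested. With the replicate block, 5 members were called with shMPZL3 #1 (DSP and PERP added, adjusted p = 0.0328 and 0.0106) and 3 with shMPZL3 #2 (DSC2 and PERP added, adjusted p = 0.0463 and 0.0174), all genes called rose to 6355 and 3680, and PKP3 between the shRNAs was 0.0020.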

Other observations

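Of 53 genes within 1 Mb of the cadherin genes on chromosome 18, 10 were tested, 3 of them members. Of all genes tested, 16.8% were called higher and 15.3% lower with shMPZL3 #1, and 7.56% lower with shMPZL3 #2 than with shMPZL3 #1. GAREM1, named after its values were seen, was higher with shMPZL3 #1 by 0.90 (adjusted p = 0.000365 by edgeR), differed by 0.31 with shMPZL3 #2 (adjusted p = 0.199) and was lower with shMPZL3 #2 than with shMPZL3 #1 by 0.59 (-0.59, adjusted p = 0.0140). RNF138, which overlaps GAREM1 on the other strand and was also named after its values were seen, was lower with shMPZL3 #1 by 0.66 (-0.66, adjusted p = 0.00769). TRAPPC8, between these and DSG2, had log2 differences of -0.24 and -0.31 (adjusted p = 0.137 and 0.0919). The libraries do not keep strand, so reads in the stretch that GAREM1 and RNF138 share could count for either.

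Replicate 1 had the lowest DSG2, DSC2, DSC3, DSP and PERP level of its group in all 3 groups, which did not hold for PKP1, PKP2 or PKP3. The pattern was picked after the values were seen, and its share among all genes tested was not counted. For DSC3 the replicate 1 libraries had 10.0, 20.8 and 14.5 CPM.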
